A study of Mus musculus with 6 samples.

Results

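The genes described here make, break down, sense or carry adenosine outside the cell: *Nt5e*, *Entpd1*, *Entpd2*, *Enpp1*, *Ada*, *Adk*, *Adora1*, *Adora2a*, *Adora2b* and *Slc29a1*. The set was selected on the measured counts of *Nt5e*, which were higher in the libraries labelled AdKO, so the difference in *Nt5e* is a description and carries no test. Members were the rows of the count table with these symbols, and the row with the highest total stood for a symbol. Of the 10 genes, 4 had a row (*Nt5e*, *Entpd2*, *Adora2b* and *Slc29a1*), out of 19509 symbols in 37024 rows. All 4 passed the filter on low counts, and the other 6 were not analysed here.

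Bulk RNA-Seq libraries were made from total RNA of inguinal white adipose tissue (iWAT), the subcutaneous fat of the groin, with 3 libraries labelled AdWT and 3 labelled AdKO. All mice had eaten a Western diet for 12 weeks and were on a C57BL/6 background. AdKO mice carried floxed *Lexis* alleles and the adiponectin-cre transgene, whose promoter is active in adipocytes, so the other cells of the fat pad were not targeted. AdWT mice were littermate controls with floxed *Lexis* alleles and without the transgene. The labels call these genotypes wild-type and knockout and give neither sex nor age. The study calls the 3 libraries of a group biological replicates, and the *p* values below measure the spread between these 3. Totals ran from 14470542 to 17882713 counts per library.

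Adenosine outside cells comes largely from ATP. CD39 (*Entpd1*), its relatives of the ENTPD family and ENPP1 split ATP to ADP or AMP, and CD73, the product of *Nt5e*, is the membrane-anchored enzyme that splits AMP to adenosine. Adenosine then acts on 4 G protein–coupled receptors, is carried into cells by equilibrative transporters such as ENT1, the product of *Slc29a1*, and is turned into inosine by adenosine deaminase (*Ada*) or into AMP by adenosine kinase (*Adk*). In fat, adenosine acting on the A1 receptor is known to restrain lipolysis, and the A2-type receptors, which raise cyclic AMP, have been tied to thermogenesis. *Nt5e* is also a familiar surface marker of mesenchymal stromal cells and of lymphocyte and endothelial subsets.

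The targeted gene was examined first. *Lexis* was read from *4930412L05Rik* (ENSMUSG00000087192.1), a lincRNA on the minus strand at chr4:53217938-53230729 in NCBIM37, the assembly also named mm9. *4930412L05Rik* had 8, 9 and 8 counts under the AdWT label and 21, 11 and 13 under the AdKO label. Every AdKO library lay above every AdWT library, as in 6.16% of all rows tested. The fitted log2 fold change was 0.87 (SE 0.381, edgeR adjusted *p* = 0.851). Of 16 probes designed against *Lexis*, 9 matched inside this gene, and whether the counted exons lie in the deleted part is not given in the sources used here, so this gene is no check of the labels, which are used as given. The log2 fold change was 0.49 without AdKO replicate 1, the library with the highest count.

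*Nt5e* (ENSMUSG00000032420.6, chr9:88222447-88266927, plus strand, protein coding) had 81, 88 and 97 counts in AdWT and 152, 140 and 184 in AdKO. As TMM-scaled CPM, which are counts relative to a library's total, these were 5.29, 5.25 and 6.48 CPM against 10.4, 9.21 and 11.04 CPM. Every library labelled AdKO lay above every library labelled AdWT, which is the pattern the gene was chosen for. The means were 5.68 ± 0.697 CPM and 10.2 ± 0.931 CPM (SD, *n* = 3 each), and the fitted fold change was 1.80 (log2 0.85, SE 0.159). A log2 fold change at least this high was found in 117 of 9872 rows tested, or 1.19%, and non-overlapping groups with AdKO higher in 608 rows, or 6.16%. Both shares are given as background, because the same contrast chose the gene.

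As a description of the values that chose the gene, the log2 fold change, refitted on 5 libraries at a time, ranged from 0.79 without AdKO replicate 3 to 0.95 without AdWT replicate 3. *Nt5e* was of middling abundance, with 48.6% of tested rows below its mean CPM. The annotation gives it 1 transcript with 3580 exon bases.

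**Figure D1:**
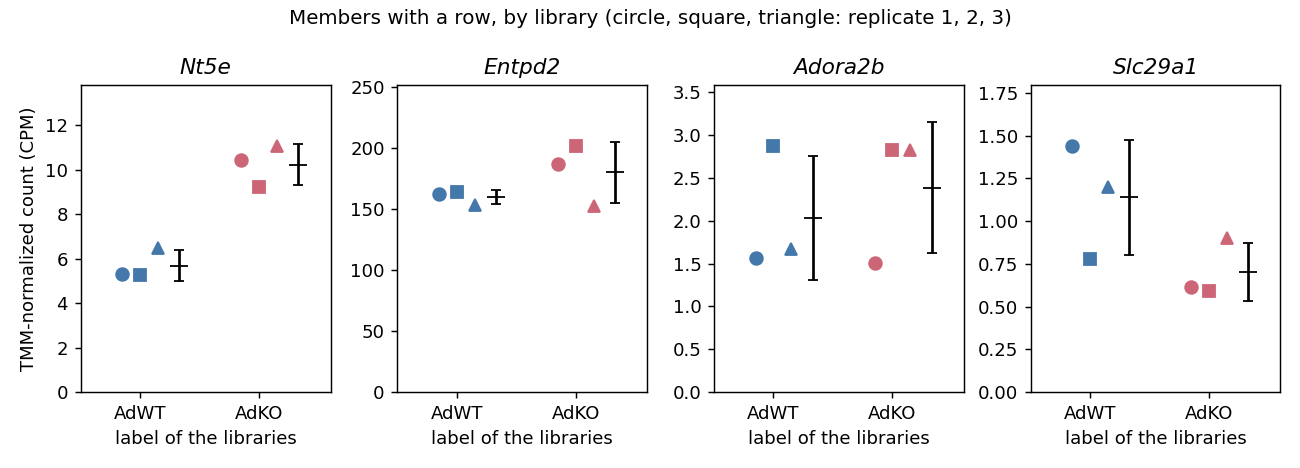
TMM-normalized counts (CPM, linear axes from 0, each panel with its own range) of the 4 members with a row, by library, with the group mean and SD (*n* = 3) beside the points. Circle, square and triangle are replicates 1, 2 and 3; the groups are apart for *Nt5e*, the gene the list was built on, and overlap for the other 3.

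None of the other 3 members with a row passed the test. With edgeR's *p* values adjusted by Benjamini-Hochberg over all 9872 rows, 0 of 3 passed an adjusted *p* of 0.05, as did 0.0% of all rows. DESeq2 called 17 rows and no member among the 3. At an unadjusted *p* of 0.05, 0 of 3 passed, against 5.73% of all rows. Their groups overlapped in every case, whereas 11.9% of all rows had groups that did not overlap.

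*Entpd2* (ENSMUSG00000015085.7, chr2:25251394-25256843, plus strand), an ectonucleotidase that favours ATP and leaves ADP, was by far the most abundant member. It had 2489, 2741 and 2300 counts in AdWT and 2719, 3059 and 2541 in AdKO, equal to 163, 164 and 154 CPM against 187, 201 and 152 CPM. AdKO replicates 1 and 2 lay above all 3 AdWT libraries, while AdKO replicate 3 was the lowest of the 6. The log2 fold change was 0.17 (SE 0.106, 95% interval −0.08 to 0.42, adjusted *p* = 0.853), an interval that runs from 0.949-fold to 1.34-fold. This member's position turned on AdKO replicate 3, without which the unadjusted test was passed with a log2 fold change of 0.28. Its AdKO replicates varied by 13.9%, against 3.44% in AdWT.

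*Adora2b* (ENSMUSG00000018500.2, chr11:62062486-62079955, plus strand) encodes the A2B receptor, the low-affinity adenosine receptor that couples to adenylate cyclase. Counts were 24, 48 and 25 in AdWT and 22, 43 and 47 in AdKO, or 1.57, 2.87 and 1.67 CPM against 1.51, 2.83 and 2.82 CPM. AdWT replicate 2 and AdKO replicates 2 and 3 were high and the other 3 libraries low, a split that crossed the labels. The log2 fold change was 0.23 (SE 0.343, 95% interval −0.57 to 1.03, adjusted *p* = 0.909). The interval runs from 0.672-fold to 2.04-fold and so includes both no change and the fold change of *Nt5e*. Among the remaining adenosine receptors, *Adora3*, the A3 receptor, had 0 counts in all 6 libraries, a level of at most 0.179 to 0.206 CPM per library if 3 counts are taken as the floor. That limit takes the table's 0 at face value: *Kdr*, a defining endothelial gene named after its values were seen, also had only 0 to 2 counts per library, and 31.8% of symbols with a single row were at 0 in all libraries. *Adora1* and *Adora2a* had no row among those used here.

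*Slc29a1* (ENSMUSG00000023942.8, chr17:45722149-45736555, minus strand), the transporter ENT1, was the scarcest member and the only one with a fitted value below 0. Its leading row had 22, 13 and 18 counts in AdWT and 9, 9 and 15 in AdKO, or 1.44, 0.776 and 1.20 CPM against 0.618, 0.592 and 0.8997 CPM. AdKO replicate 3 lay above AdWT replicate 2, so the groups overlapped by that pair of libraries. The log2 fold change was −0.67 (SE 0.350, 95% interval −1.49 to 0.14, adjusted *p* = 0.853). The gene was spread over 8 rows of the table, and the sources do not state how reads shared between rows were counted. With all 8 rows summed, the counts were 30, 20 and 22 against 15, 17 and 25, and the log2 fold change shrank to −0.33 (SE 0.289). For the leading row alone, leaving out AdWT replicate 2 moved the log2 fold change to −0.90 and past the unadjusted threshold.

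**Figure D2:**
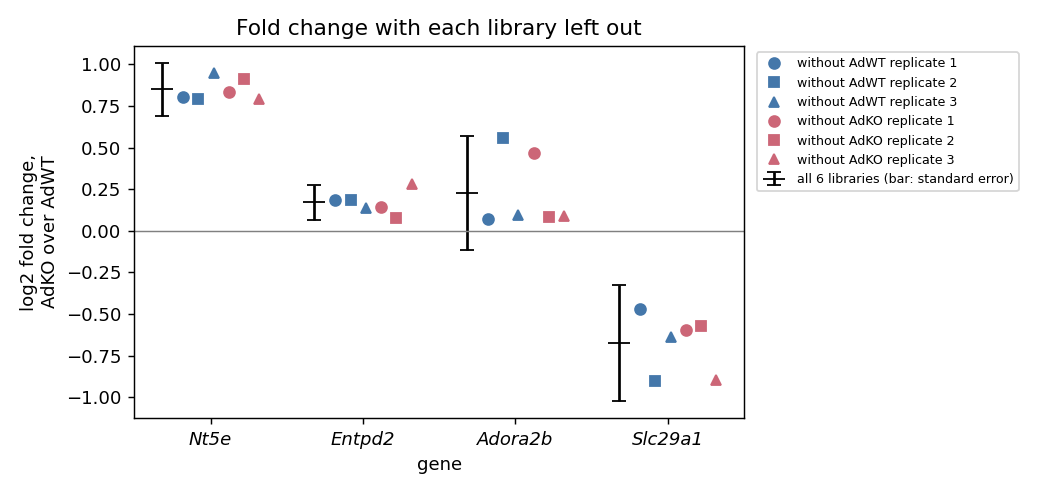
Log2 fold change (AdKO over AdWT) of each member with all 6 libraries (black, bar: standard error) and with each library left out in turn (coloured points). Values for *Nt5e* stay between 0.79 and 0.95, and those of *Entpd2*, *Adora2b* and *Slc29a1* keep their sign while their size moves.

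To compare levels between genes, CPM was divided by the exon length of the annotation, for the 15 tested genes of the members and a wider purine list that had a single row in the table. The annotation used for counting is not given, so these lengths may differ from those counted. The limit given above for *Adora3* applies to low levels here too. *Entpd2* was the third highest, at 79.8 CPM per kilobase over the 6 libraries, and its range of 71.6 to 94.5 overlapped that of *Nt5c* (64.0), the gene next below it. *Nt5e* was the ninth at 2.22 CPM per kilobase, with a range of 1.47 to 3.08, and *Adora2b* the tenth at 1.20 CPM per kilobase, with a range of 0.819 to 1.55. In this order *Nt5e* overlapped both *Ahcy* (3.64) above it and *Adora2b* below it.

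Per length, RNA of *Entpd2*, whose product splits ATP, was far above that of *Nt5e*, whose product splits AMP, in every library. These are RNA levels and give no amount of enzyme. The ratio of *Entpd2* to *Nt5e* was 51.6, 52.4 and 39.9 in AdWT and 30.1, 36.7 and 23.2 in AdKO, or 48.0 ± 7.02 and 30.0 ± 6.76 (SD, *n* = 3 each). The AdKO ratios were lower because the divisor, *Nt5e*, was the gene chosen for its higher counts there, so nothing further is read from them. The ratio of *Nt5e* to *Adora2b* was 1.74, 0.945 and 2.0 in AdWT and 3.56, 1.68 and 2.02 in AdKO, and these overlapped.

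**Figure D3:**
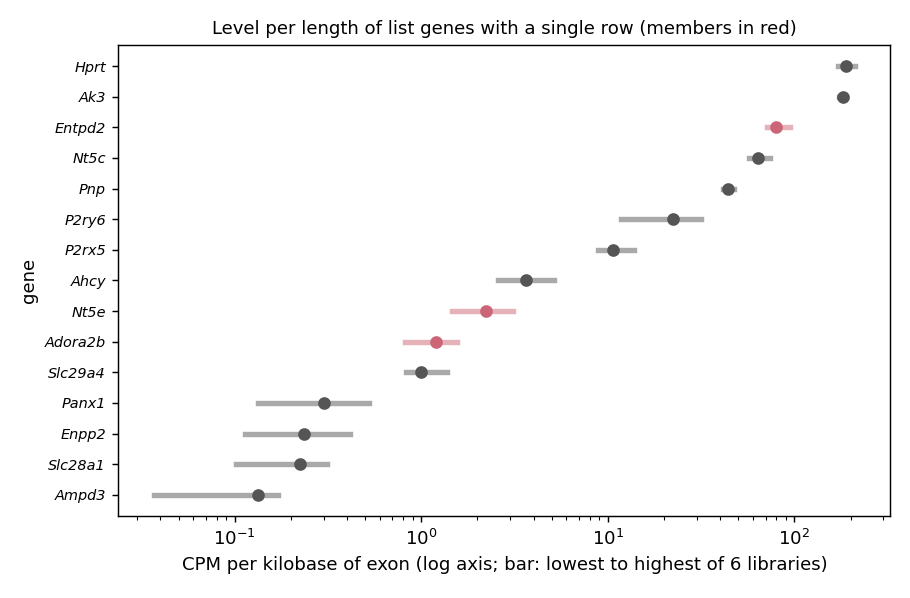
Level per length (CPM per kilobase of exon, log axis) of the 15 tested members and purine list genes with a single row. Points are means over 6 libraries and bars run from the lowest to the highest library. *Entpd2* is the third at 79.8, *Nt5e* the ninth at 2.22 and *Adora2b* the tenth at 1.20.

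The rest of purine handling was described through a list of 63 genes of nucleotide hydrolysis, salvage, transport, release and reception. Of these, 52 had a row, 8 were at 0 in all 6 libraries and 26 were tested. None of the 26 passed, adjusted or not (lowest unadjusted *p* = 0.0651, edgeR adjusted *p* = 0.851), against 2.76% of all rows higher and 2.98% lower at an unadjusted *p* of 0.05. None of the 26 had groups that did not overlap, against 6.16% of all rows with AdKO higher and 5.72% with AdKO lower. Fitted values were above 0 for 11 genes and below 0 for 15, with a median log2 fold change of −0.02 beside 0.01 over all rows.

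Within surface hydrolysis, 3 further genes were tested, with a median log2 fold change of 0.04. They were *Enpp2* (0.41, SE 0.555), which encodes autotaxin, *Enpp5* (0.04, SE 0.157) and *Acpp* (−0.43, SE 0.432), a phosphatase that can also split AMP. None of the 3 passed the test. The intracellular enzymes were few. The nucleoside diphosphatases (2 of 4 tested), adenylate kinases (2 of 4) and the adenosylhomocysteinase family (2 of 3), whose enzyme AHCY frees adenosine inside the cell, had medians of −0.03, −0.28 and −0.05, and no gene of these passed. Both nucleotidases tested were near 0 (median −0.05), and *Nt5c*, a cytosolic nucleotidase, had a log2 fold change of −0.00 (SE 0.104). *Nt5c3b*, another nucleotidase, fell below the filter on low counts and was not tested. Its leading row had 8, 5 and 6 counts in AdWT and 17, 9 and 13 in AdKO. Its groups did not overlap, as in 6.16% of tested rows with AdKO higher. The adenylate kinase *Ak3*, which works in the mitochondrial matrix and had the highest summed count of the enzymes listed, had 8290, 9936 and 8796 counts in AdWT and 7963, 8840 and 9136 in AdKO. These overlapped throughout (log2 fold change −0.04, SE 0.0718).

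Removal and salvage had 6 of 10 genes tested, the highest number of any role of the wider list, with a median of 0.14. *Pnp*, which splits inosine (0.07, SE 0.0751), and *Hprt*, which salvages hypoxanthine (−0.14, SE 0.0898), had the smallest errors. *Aprt*, which salvages adenine, had 153, 144 and 104 counts in AdWT and 137, 170 and 237 in AdKO, with overlapping groups (0.45, SE 0.207). *Dpp4*, the cell surface peptidase that can anchor adenosine deaminase, had 255, 264 and 230 counts against 311, 250 and 291 (0.21, SE 0.131). AdKO replicate 2 alone lay within the AdWT range.

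Among nucleoside transporters, 3 of 6 listed genes were tested besides *Slc29a1* (median −0.03). The one with the highest count was *Slc29a4*, a transporter of monoamines and, in acid, adenosine, with 41, 64 and 37 counts in AdWT and 37, 35 and 46 in AdKO. Its groups overlapped (−0.24, SE 0.228). For nucleotide release, *Panx1*, a channel that lets ATP out, had the highest fitted value of the wider list (0.65, SE 0.432) on 15, 12 and 6 counts against 23, 11 and 17. The lowest was that of *Ak1*, the cytosolic adenylate kinase (−0.53, SE 0.287).

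Receptors for ATP, ADP and UDP had 4 of 15 genes tested (median 0.04). *P2ry6*, a UDP receptor, had the highest count of them, with 708, 614 and 342 counts in AdWT and 624, 746 and 1019 in AdKO. AdKO replicate 1 lay below AdWT replicate 1, and the log2 fold change was 0.53 (SE 0.250, 95% interval −0.05 to 1.12, adjusted *p* = 0.851). The genes *Aprt*, *Dpp4*, *Panx1*, *Ak1*, *Pnp*, *Hprt*, *Nt5c*, *Enpp2*, *Enpp5* and *Acpp* were named after their values were seen.

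**Figure D4:**
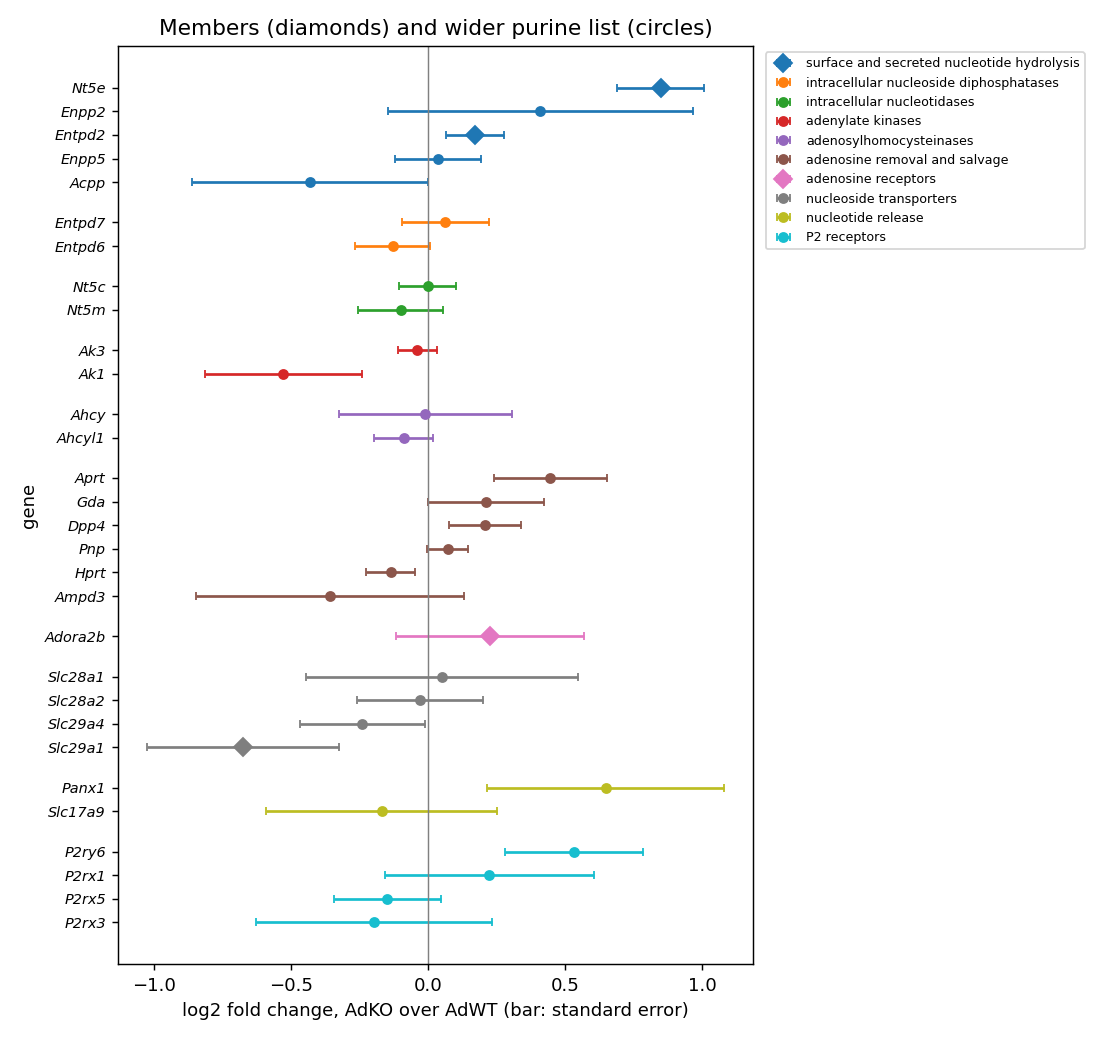
Log2 fold change (AdKO over AdWT, bar: standard error) of the 4 members (diamonds) and the 26 tested genes of the wider purine list (circles), coloured by role. *Nt5e*, chosen for its rise, lies at 0.85; the wider list runs from −0.53 (*Ak1*) to 0.65 (*Panx1*) around a median of −0.02.

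Among the genes whose log2 CPM ran most like that of *Nt5e* over the 6 libraries were *Naf1* (Pearson's *r* = 0.989), *Spata24* (0.964), *Ccnl2* (0.964) and *Zfp930* (0.962), out of 8709 symbols. With each library left out, the lowest value among these 4 was 0.9456, that of *Zfp930* without AdKO replicate 3. *Naf1*, an assembly factor of H/ACA ribonucleoproteins, had 352, 391 and 373 counts in AdWT and 436, 421 and 485 in AdKO. These genes were picked for following *Nt5e*, so their higher CPM in AdKO comes with the choice, and *Spata24* rested on 5 to 13 counts per library. In all, 66 symbols reached a coefficient of 0.9 and 11 reached 0.95. The other members had lower coefficients, and those of *Entpd2* and *Adora2b* turned on single libraries. *Entpd2* had 0.358 (Spearman's rho −0.14), and 0.811 without AdKO replicate 3. *Adora2b* had 0.167 (rho −0.31), and between −0.10 and 0.549 with a library left out. *Slc29a1* had −0.600 (rho −0.31), and between −0.828 (without AdWT replicate 2) and −0.387 (without AdWT replicate 1).

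Because whole fat pads were sequenced, fewer cells of a type and less RNA per cell cannot be told apart. Marker lists of 9 cell types were summed in each library. Adipocyte markers (6 of 8 with a row) had the highest sum of the 9 lists in every library, at 46140 to 54600 CPM in AdWT and 41330 to 42010 CPM in AdKO, and 2 of 6 tested (*Lep* and *Fabp4*, named after their values were seen) were lower in AdKO with no overlap, against 5.72% of all rows, while the other 4 overlapped. Skeletal muscle markers (6 of 7) were also lower, at 11.9 to 152 CPM in AdWT and 2.63 to 3.30 CPM in AdKO, with no overlap in all 5 genes tested, against the same 5.72%. The adipocyte sum was carried by those 2 genes, which gave 31820 CPM (*Fabp4*) and 8904 CPM (*Lep*) of 46140 CPM in AdWT replicate 1. Both sums moved with the labels, and their part in the difference of *Nt5e* was not tested.

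Lists of cells in which *Nt5e* is well known overlapped between the groups. Progenitor and fibroblast markers, of which 5 of 9 had a row, summed to 7456 to 9850 CPM in AdWT and 8264 to 13520 CPM in AdKO. Endothelial markers (5 of 7) summed to 876 to 1281 CPM against 859 to 1220 CPM. Lymphocyte markers (9 of 9, with *Cd8a* and *Foxp3* at 0) were scarce, at 13.8 to 37.4 CPM against 12.5 to 19.7 CPM, and 1 of 5 tested was lower in AdKO with no overlap (*Cd4*, named after its values were seen), against 5.72% of all rows. None of these 3 lists separated the labels as *Nt5e* did. In AdWT replicate 1, *Col3a1* gave 7016 CPM and *Dpt* 2377 CPM of the progenitor sum of 9850 CPM. *Cdh5* gave 1154 CPM of the endothelial sum of 1281 CPM in the same library. These 3 genes were named after their values were seen, and the sums speak mostly for them. The part of these lists in the difference of *Nt5e* was not tested.

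Macrophage markers (6 of 7, with *Emr1* at 0) summed to 359 to 754 CPM and 635 to 788 CPM. Mural and smooth muscle markers (4 of 6) summed to 100.2 to 165 CPM and 161 to 197 CPM, and Schwann cell markers (2 of 4) to 65.6 to 79.0 CPM and 68.9 to 81.5 CPM. Epithelial markers (5 of 5) stood apart in 2 libraries, at 47.9 CPM in AdKO replicate 3 and 20.2 CPM in AdWT replicate 3, with the others at or below 1.44 CPM. Their part in the difference of *Nt5e* was not tested. AdWT replicate 2 held the most skeletal muscle signal.

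**Figure D5:**
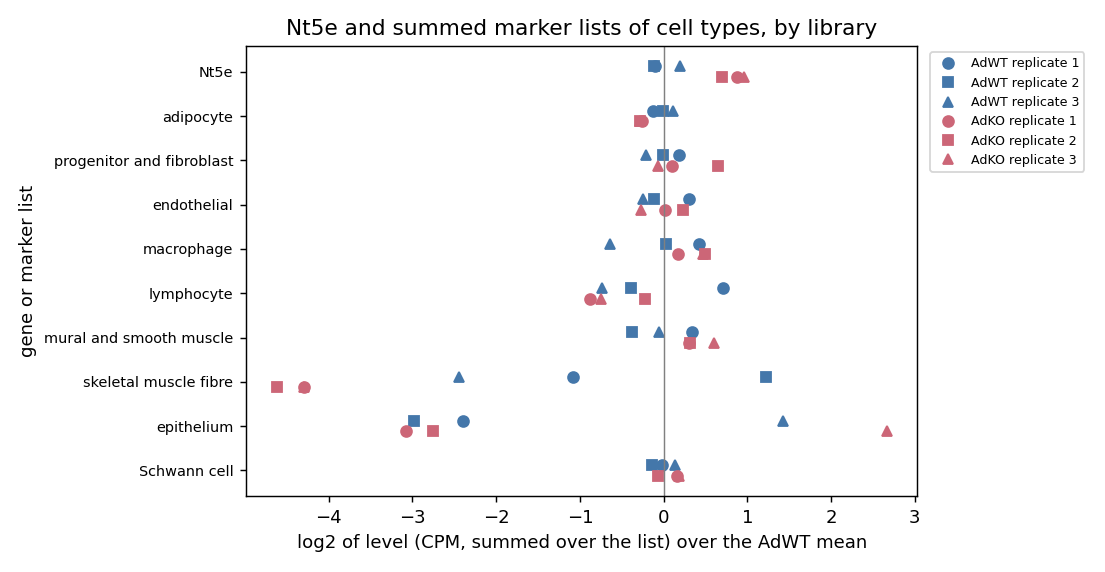
*Nt5e* and the summed marker lists of 9 cell types, as log2 of the level in each library over the AdWT mean. *Nt5e* separates the labels upward, the adipocyte and skeletal muscle lists separate them downward, and the other 7 lists overlap.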

How the data were processed

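Total RNA of iWAT was extracted with Trizol and RNeasy columns and sequenced after KAPA Stranded library preparation. HISAT2 alignment to mm9 was done by the authors, who deposited unnormalized counts of 6 libraries and whose processing notes name DESeq2. The counting tool, annotation and strand setting are not given in the sources used here.

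The groups were compared with edgeR 4.0.16 (glmQLFit and glmQLFTest, filterByExpr by group, TMM) in R 4.3.3 on the deposited counts, with Benjamini-Hochberg adjustment over 9872 rows. The SE of a log2 fold change is its size over the root of the F statistic. Log2 CPM used a prior count of 2. Python 3.11.15 summarised the results. The fit was tested on simulated data with 200 changed rows.

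Members and lists were chosen with earlier results of these data known. Genes were named by rule: members, *Lexis*, purine list genes past an unadjusted *p* of 0.05 or with non-overlapping groups, the purine receptor, enzyme and transporter with the highest count, and the 5 symbols most correlated with *Nt5e*, of which 1 is not reported here. Of the genes named outside the rule, most are marked as chosen after their values were seen. *Ahcy*, *Adora3*, *Emr1*, *Cd8a* and *Foxp3* are also outside the rule and are not marked. Alternatives were DESeq2 1.42.0, other scalings and filters, summed rows, a robust fit, a replicate block and each library left out. Positions come from GENCODE vM1 on NCBIM37. Total depth was 14470542 to 17882713 counts, and the common biological coefficient of variation was 0.196. The share of *Adora1* among adenosine receptors was planned and could not be computed.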

Additional observations from a re-analysis of the deposited data

How the results depend on the processing

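Fold changes of *Nt5e*, *4930412L05Rik*, *Entpd2*, *Adora2b* and *Slc29a1* kept their sign in each of the 14 or 15 alternatives that gave them a value (73 fold changes of 5 genes). *Nt5e* was chosen for its rise here, and its groups and those of *4930412L05Rik* did not overlap, so their kept sign adds no support. Rows with an adjusted *p* under 0.05 numbered 0 with edgeR, 17 with DESeq2, 1 where every row with a count in some library was tested, and 0 to 1 with a library left out (1 without AdKO replicate 3). Rows with an unadjusted *p* under 0.05 numbered 566, of which 272 were higher and 294 lower; leaving out a library gave 329 (without AdWT replicate 2) to 1208 (without AdWT replicate 1, 735 higher and 473 lower), and scaling by library size alone gave 313 higher and 162 lower. Among the members other than *Nt5e* the range with a library left out was 0 to 1: *Slc29a1* without AdWT replicate 2 and *Entpd2* without AdKO replicate 3. Purine list genes passing numbered 1 with DESeq2 (*P2ry6*), 3 with that loose filter and 0 to 3 with a library left out; the 3 were *Nt5c3b*, *Aprt* and *P2ry6* both times, the second time without AdWT replicate 1, and 1 gene passed without AdWT replicate 3 (*Hprt*), AdKO replicate 1 (*Aprt*) and AdKO replicate 2 (*Nt5c3b*). The filter of at least 10 counts in every library left out *Slc29a1*. For all of these the cause was not tested, apart from the fewer samples or other rows each alternative uses. Same-numbered libraries deviated with correlations of −0.08, −0.13 and 0.33. These few values cannot decide whether the numbers pair the samples. With the replicate number as a block, 418 rows passed the unadjusted threshold, 0 the adjusted one, 0 members and 0 purine list genes, and the log2 fold change of *Nt5e* was 0.85. The share of *Adora1* in the adenosine receptor level was not run, since *Adora1* and *Adora2a* were not analysed here. Counts were low for *Slc29a1*, *Adora2b* and *4930412L05Rik*, at 8 to 48 per library.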
